A study of Homo sapiens
Mus musculus with 16 samples.

Results

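Nintedanib alone was set against vehicle in the tumour cells of a bladder cancer xenograft, by way of the human-mapped transcripts of 8 of the 16 libraries of the series. These were the 4 nintedanib and the 4 vehicle libraries. All genes with a normalized value of at least 1 in 4 or more of the 16 libraries were tested, which were 17663 of the 23368 human genes listed. ScaBER, an established human cell line of squamous bladder carcinoma, was grown as tumours in Hsd:Athymic Nude-Foxn1nu mice, which lack a thymus and so most T cells. The nintedanib group was given nintedanib at 40 mg/kg for 14 days. The vehicle group was given the carrier, 0.5% methylcellulose with 0.1% Tween80, over the same 14 days. A further 4 libraries came from the combination of both drugs and 4 from alpelisib alone at 25 mg/kg, and these served to estimate the spread between libraries and as a second setting for nintedanib. All 4 groups thus share the cell line and the host strain. The labels name 1 cell line and do not say how many animals the libraries stand for, so a p-value here reflects variation among libraries that may be technical in part.

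Nintedanib is a small molecule that blocks the kinase domains of the VEGF, PDGF and FGF receptors, and also of SRC family kinases. In tumours these receptors sit both on vessel and stromal cells and, for the FGF receptors, often on the carcinoma cells. Squamous carcinoma cells resemble the keratinocytes of stratified epithelium. In that tissue basal cells divide and express KRT5 and KRT14, and cells that leave the basal layer stop dividing, build desmosomes, and assemble the cornified envelope, a cross-linked protein shell made of involucrin, loricrin, small proline-rich (SPRR) and late cornified envelope (LCE) proteins. Kallikrein proteases (KLK) later cut the corneodesmosomes that hold the dead cells together, under the control of inhibitors such as that encoded by SPINK5.

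Libraries read the 3′ ends of polyadenylated RNA, and values are reads divided by 1 size factor per library, as deposited. Human reads per library ran from 8303617 to 17424797 with nintedanib and from 12099860 to 16777951 with vehicle. The lowest was that of nintedanib 4. Mouse reads were 26.0% ± 5.42 of all mapped reads with nintedanib and 22.2% ± 2.10 with vehicle (SD, n = 4 each; 2-sided exact permutation p = 0.257, where the smallest possible p is 0.0286). Nintedanib 4 had the highest share, at 33.99%, and carried 3.449% of its mouse reads in skeletal muscle transcripts, against 0.001858% to 0.536% in the vehicle libraries. The cell type label held: the summed level of 8 basal squamous markers was 312200 to 431600 with nintedanib and 227100 to 379300 with vehicle, while 8 luminal urothelial markers summed to 231 to 353 with nintedanib and 241 to 330 with vehicle. Endothelial markers, 8 in number, each averaged under 10 and summed to 28.6 to 40.9 with nintedanib and 18.1 to 33.5 with vehicle. Among human-mapped markers of other cell types, those of leukocytes summed to 411 to 528 with nintedanib and 286 to 516 with vehicle, those of adipocytes to 859 to 1759 with nintedanib and 866 to 2817 with vehicle, and those of erythroid cells to 11.3 to 32.0 with nintedanib and 10.5 to 26.0 with vehicle. Skeletal muscle markers summed to 611 to 2921 with nintedanib and 339 to 706 with vehicle, and all 8 of those tested had a positive difference (median 0.68). Nintedanib 4 stood far above the rest. With the vehicle mean at 0, the mean log2(value + 1) of these 8 was 0.36, −0.72, −0.43 and 3.92 in nintedanib 1 to 4. In vehicle libraries it was −0.74 to 0.94. Of 13330 genes with a mouse gene of the same name, 413 (3.10%) followed it across the 16 libraries with a Pearson r above 0.8, and for a gene named below the r is given where it is above 0.8. Reads assigned to the wrong species were not tested for.

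No human gene passed an adjusted p of 0.05. The test was limma on log2(value + 1) with 1 mean per group over all 16 libraries and Benjamini-Hochberg adjustment over the 17663 genes, and it called 0 genes (0.00%). Without adjustment, p was under 0.05 for 1215 genes with a higher mean in nintedanib tumours (6.88%) and for 830 with a lower one (4.70%). Without vehicle 1 these counts were 701 and 416, and the lower count was 549 without nintedanib 2. When libraries were scaled to their human plus mouse reads the 2 counts were 592 and 1609, so the split between directions depends on the scaling. All 4 nintedanib libraries lay above all 4 vehicle libraries for 858 genes (4.86%) and below them for 569 (3.22%). Differences below are therefore described as levels, with no gene called by this fit. Other fits made calls. DESeq2 on the recovered reads called 58 higher (0.328%) and 13 lower genes (0.0736%) of the 17663. It gave no adjusted p for 3438 of these, which count here as not called. Limma on the 8 libraries alone, with the filter applied to them, called 83 higher (0.518%) and 6 lower (0.0375%) of 16016 genes, and was added after the data were seen. These fits shared 39 genes, which are 54.9% of the DESeq2 calls and 43.8% of the 8-library calls.

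**Figure D1:**
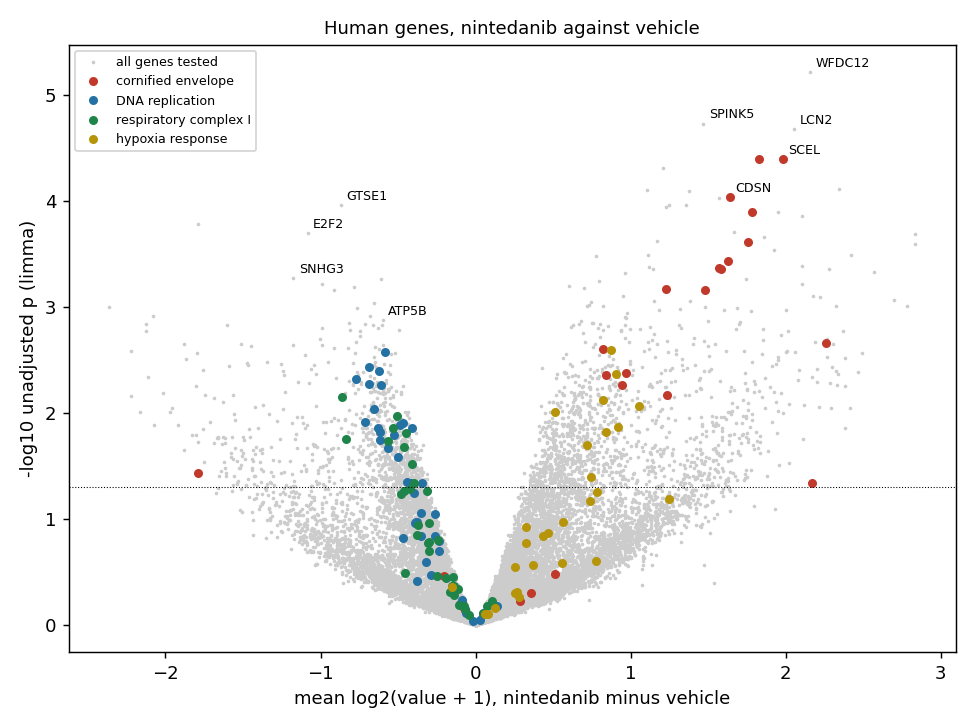
Each point is 1 of the 17663 human genes tested, placed by its mean log2 difference between nintedanib and vehicle (x axis) and the −log10 of its unadjusted limma p (y axis); the dotted line marks the unadjusted threshold. Members of the cornified envelope list (red) lie mostly to the right with WFDC12, SPINK5 and LCN2 above them, members of the DNA replication (blue) and respiratory complex I (green) lists lie mostly to the left, and no gene passed after adjustment.

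Cornified envelope genes had higher levels in nintedanib tumours. Of 26 listed genes 25 were tested, 20 had a positive and 5 a negative difference, and their median log2 difference was 1.23, against 0.021 over all genes tested. For 12 of the 25 the groups did not overlap and nintedanib was higher, against 4.86% of all genes, and for 0 the reverse held. The limma fit called none of them. The 8-library fit called 12, where it called 0.518% of all genes higher, and DESeq2 called 8, where it called 0.328% higher. SBSN encodes suprabasin, a secreted protein of the upper epidermal layers. It had normalized values of 1267, 1945, 1079 and 1060 in the nintedanib libraries, against 429.7, 484, 385 and 383 in the vehicle libraries, a log2 difference of 1.63 (SE 0.39, adjusted p = 0.205; DESeq2 adjusted p = 0.0053). Its 4 nintedanib values all lay well above the 4 vehicle values, which were close together. CDSN, the gene for the adhesive protein of corneodesmosomes, stood at 531, 1328, 806 and 608 with nintedanib and at 221, 288, 242 and 234 with vehicle. Nintedanib 2 was the highest library for CDSN, and the lowest nintedanib library was still above every vehicle library (adjusted p = 0.131, limma). CNFN, which encodes the envelope component cornifelin, had 1800, 1970, 1614 and 1149 with nintedanib and 662, 759.8, 769 and 559.6 with vehicle, and its level followed that of its mouse namesake with r = 0.80. SCEL encodes sciellin, an envelope precursor. Its values were 171, 185, 93.6 and 200.3 with nintedanib, against 26.7, 88.3, 34.0 and 28.3 with vehicle, where vehicle 2 stood apart from the others (log2 difference 1.98, SE 0.39).

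The SPRR and LCE genes, which lie in the epidermal differentiation complex and encode envelope precursors, made up much of this group. All 11 tested SPRR genes had a higher mean with nintedanib, with a median log2 difference of 1.501. Of the 11, 6 were higher without overlap, against 4.86% of all genes. SPRR2G had 798, 4657, 2170 and 1365 in nintedanib tumours, against 618, 634, 356 and 497 in vehicle tumours (log2 difference 1.83, SE 0.36, adjusted p = 0.131, limma). SPRR2A had 1188, 4354, 3016 and 1476 with nintedanib and 725, 772, 444 and 656 with vehicle. In both genes nintedanib 2 was the highest library and nintedanib 1 was closest to the vehicle range. SPRR1B, the tested SPRR gene with the highest values, stood at 11770, 12510, 9273 and 9670 with nintedanib and 6634, 5912, 6292 and 5509 with vehicle. SPRR2B (log2 difference 2.26) was highest in nintedanib 2, with 69.6, 521, 84.0 and 90.9 in the nintedanib libraries and 39.1, 58.1, 11.9 and 17.0 in the vehicle libraries. Its groups did not overlap, and its log2 difference was 1.59 without nintedanib 2. SPRR3, typical of the oesophagus and other internal squamous linings, overlapped fully, at 628, 2177, 1634 and 5750 with nintedanib and 1659, 4911, 633 and 1133 with vehicle. Of 18 LCE genes listed 15 were tested, 14 had a positive difference and the median was 1.755. Of the 15, 5 were higher without overlap, against 4.86% of all genes. LCE3E had 2511, 3676, 2961 and 1262 with nintedanib, against 541, 1189, 539 and 764 with vehicle, and LCE1E had 267, 716, 395 and 232 with nintedanib, against 84.8, 145, 64.5 and 62.2 with vehicle. In both genes nintedanib 2 was again the highest library, while nintedanib 4 was the lowest of its group. SPRR2 and LCE paralogs are close to identical in places, so reads may be split between them and the single genes are less certain than the families, which were grouped by symbol after their values were seen.

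**Figure D2:**
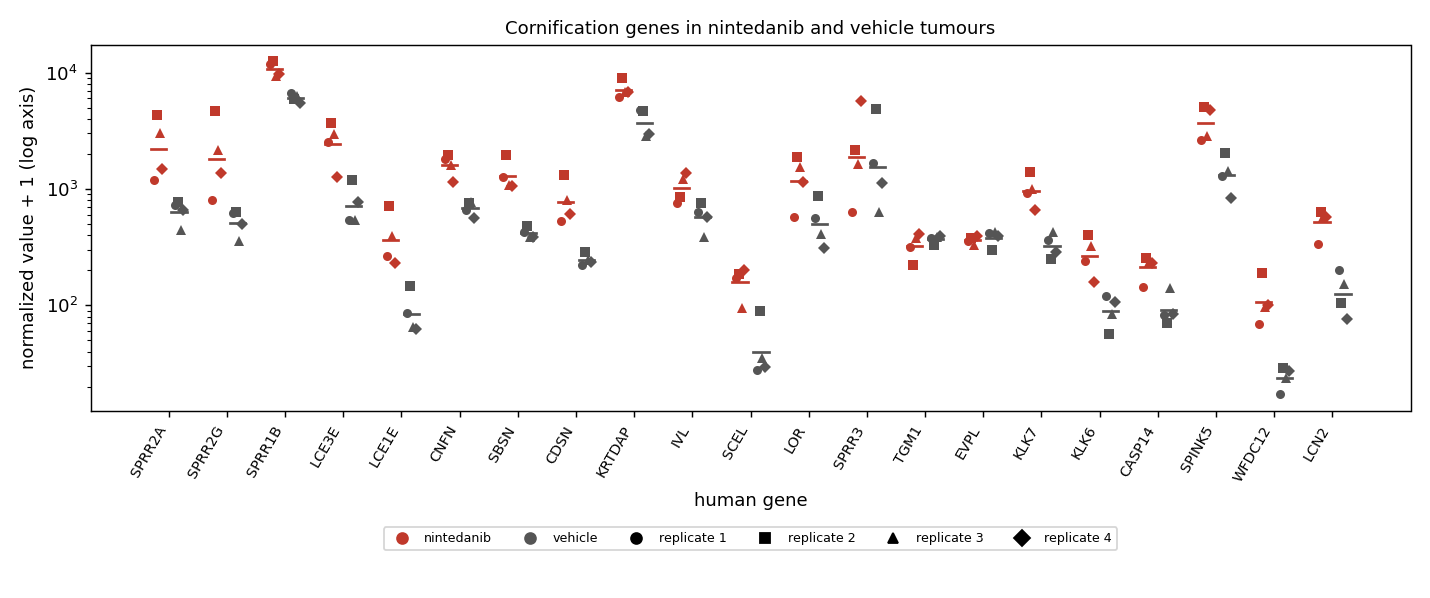
Normalized value + 1 (log axis) of 21 human genes of cornification, with the 4 nintedanib libraries in red to the left of the 4 vehicle libraries in grey, a symbol per replicate number and a bar at the mean of the log2 values. SBSN, CDSN, WFDC12 and LCN2 show no overlap between groups, whereas SPRR3, TGM1 and EVPL overlap.

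Other parts of the envelope machinery did not share this difference. TGM1, the transglutaminase that cross-links the envelope, had 316, 222, 381 and 407 with nintedanib and 379, 329, 386 and 396 with vehicle. The plakin genes EVPL and PPL, whose products form the scaffold under the membrane, had log2 differences of −0.07 (SE 0.20) and −0.09 (SE 0.18). A second transglutaminase gene, TGM3, was near the floor, at 1.74, 3.18, 0 and 0 with nintedanib and 7.62, 12.3, 0.85 and 6.78 with vehicle. IVL, the gene for involucrin, had 754, 852, 1218 and 1378 with nintedanib and 633, 751, 388 and 569.8 with vehicle, so that the groups were separate by a narrow gap. LOR, the gene for loricrin, had 576, 1881, 1551 and 1158 with nintedanib and 565, 869, 413 and 312 with vehicle and overlapped. KRTDAP, which encodes a keratinocyte differentiation-associated secreted protein, stood at 6166, 8922, 6872 and 6859 with nintedanib and 4763, 4663, 2857 and 2980 with vehicle. On the mouse scale, mouse Lor, Ivl and Cdsn were at 0 to 7.03 in nintedanib libraries and at 0 to 1.37 in vehicle libraries. Other mouse namesakes were detected. Mouse Cnfn was at 458.9, 431.8, 191 and 137 in nintedanib libraries, against 127, 155.5, 210.0 and 80.5 in vehicle libraries, so that its mean, like that of human CNFN, was higher with nintedanib, although the mouse groups overlapped. Mouse Sbsn was at 43.1 to 85.6 in nintedanib libraries and 11.2 to 107 in vehicle libraries, and mouse Lcn2 at 87.7 to 230.4 in nintedanib libraries and 26.1 to 187 in vehicle libraries. The part of mouse reads in the human values of these genes was not tested.

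Epidermal proteases and their inhibitors had positive median differences as well. Of 14 tested protease genes 11 had a positive difference, with a median of 0.69, and of 14 inhibitor genes 13 had one, with a median of 0.55. In each list 3 of 14 were higher without overlap, against 4.86% of all genes. The reported limma fit called no member of either list. The 8-library fit called 3 proteases and 2 inhibitors, against 0.518% of all genes called higher. DESeq2 called 2 of each, against 0.328% of all genes. KLK7, a chymotrypsin-like kallikrein that cuts corneodesmosomes, had 923, 1408, 997 and 661 in nintedanib tumours, against 367, 249, 425 and 284 in vehicle tumours (log2 difference 1.57, SE 0.33, adjusted p = 0.131, limma). KLK6 had 241, 401, 319.8 and 157 with nintedanib and 120, 55.9, 84.0 and 105 with vehicle. CASP14, a caspase of cornifying keratinocytes that takes part in filaggrin processing, had 144, 256, 237 and 231 with nintedanib and 81.0, 69.3, 141 and 82.5 with vehicle, and the groups were only just separate. The kallikreins did not share a direction: 7 of 12 tested had a positive difference, KLK10 stood at 869.8, 1236, 1310 and 1563 with nintedanib and 1239, 1021, 879.5 and 1153 with vehicle, and KLK8 at 902, 817, 929.8 and 1203 with nintedanib and 1544, 1202, 1016 and 1240 with vehicle. Among inhibitors, SPINK5, which encodes the kallikrein inhibitor LEKTI, had 2658, 5107, 2862 and 4747 with nintedanib and 1301, 2044, 1421 and 829 with vehicle (log2 difference 1.47, SE 0.27, adjusted p = 0.124, limma). Every nintedanib library was above every vehicle library. WFDC12, a WAP domain gene for a predicted protease inhibitor, is not among the 14 inhibitor genes counted above. It had the smallest p of all genes. Its values were 67.8, 189, 96.4 and 99.3 with nintedanib, against 16.2, 27.9, 22.9 and 26.0 with vehicle (log2 difference 2.16, SE 0.37, adjusted p = 0.108, limma). CST6, for the cysteine protease inhibitor cystatin M/E, had 1091, 1591, 1454 and 1163 with nintedanib and 787, 317, 394 and 496 with vehicle, and SERPINB2 had 111, 155, 149 and 111 with nintedanib and 47.6, 77.1, 63.7 and 53.1 with vehicle. Neither gene overlapped.

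Antimicrobial genes of the epithelium went the same way in 9 of 11 tested members, with a median log2 difference of 0.79 and 2 without overlap, against 4.86% of all genes. LCN2, for the iron-siderophore binding lipocalin 2, had 338, 636, 573 and 576 with nintedanib and 200.1, 104, 150.3 and 74.6 with vehicle (log2 difference 2.05, SE 0.38, adjusted p = 0.124, limma; DESeq2 adjusted p = 0.00116). S100A7A, a psoriasin paralog, had 61.8, 188, 227 and 152 with nintedanib and 53.4, 44.7, 39.9 and 37.3 with vehicle. The abundant calprotectin genes overlapped, with S100A8 at 12330, 15910, 10790 and 11350 in nintedanib libraries and 11240, 21460, 6947 and 6255 in vehicle libraries, and S100A9 at 10260, 21680, 17520 and 22170 in nintedanib libraries and 13640, 14450, 6765 and 7299 in vehicle libraries.

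Keratins showed no common direction across the basal and suprabasal lists. The basal pair KRT5 and KRT14 overlapped, with log2 differences of 0.09 (SE 0.29) and 0.22 (SE 0.32). KRT16, a keratin of wounded and hyperproliferative epidermis, had 28170, 21150, 15540 and 17260 with nintedanib and 11750, 7638, 13580 and 11500 with vehicle and did not overlap. All 8 basal and stress keratins had a positive difference, by a median of 0.21, which was 0.13 without vehicle 2. Of 8 suprabasal keratins 4 were above and 4 below 0. KRT1 had 3412, 5327, 4355 and 13840 with nintedanib and 4620, 7433, 6432 and 6032 with vehicle, and KRT10, its partner in the spinous layer, had 4556, 8129, 6189 and 14390 with nintedanib and 7136, 7807, 7954 and 7418 with vehicle. In both genes nintedanib 4 was the highest of the 8 libraries and nintedanib 1 the lowest, and the sign of the difference turned with the fit. KRT13, of internal squamous linings, was lower in 3 nintedanib libraries and highest in nintedanib 4, at 2292, 2858, 2518 and 7438 with nintedanib and 4452, 5215, 3492 and 4256 with vehicle. KRT80 had 979, 1403, 1362 and 1292 with nintedanib and 768, 653, 545 and 652 with vehicle, and KRT23 had 135, 341, 184 and 355 with nintedanib and 78.1, 106, 61.1 and 56.5 with vehicle, both without overlap. Mouse Krt1 and Krt10 were at 18.7 to 48.7 and 139.9 to 368.3 on the mouse scale in nintedanib tumours and at 23.1 to 61.4 and 165.1 to 257.9 in vehicle tumours.

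Of 20 regulators of the squamous lineage 18 had a positive difference, with a median of 0.35, and 4 did not overlap, against 4.86% of all genes. PRDM1, for the repressor BLIMP1, which acts in terminal keratinocyte differentiation, had 274, 219.6, 353 and 163 with nintedanib and 57.2, 65.9, 141 and 103 with vehicle (log2 difference 1.49, SE 0.38, adjusted p = 0.231, limma). EHF, an ETS factor of differentiating epithelium, had 927, 1171, 918 and 1146 with nintedanib and 386, 569.9, 874 and 765 with vehicle, and RORA had 184, 201, 157 and 232 with nintedanib and 81.9, 89.4, 131 and 116 with vehicle. The lineage factors TP63 and SOX2 overlapped, with log2 differences of 0.18 (SE 0.20) and −0.10 (SE 0.18). Junction genes had a positive difference in 10 of 15, by a median of 0.39; 1 was without overlap, which is near the 4.86% of all genes. CLDN1, a tight junction claudin, had 2034, 3114, 3064 and 2218 with nintedanib and 1950, 1570, 2144 and 1725 with vehicle. EPCAM, for an epithelial cell adhesion molecule, was lower without overlap, at 384, 319, 446 and 427 with nintedanib and 494, 558, 522 and 483 with vehicle (adjusted p = 0.475, limma).

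Several of the higher genes of smallest p lay outside the lists. SULT2B1, for the sulfotransferase that makes cholesterol sulfate in the epidermis, had 581, 373, 314 and 288 with nintedanib and 166, 132, 172 and 113 with vehicle, and GSDMA, a gasdermin gene of keratinocytes, had 106, 239, 157 and 106 with nintedanib and 39.1, 49.2, 27.2 and 43.0 with vehicle. ARRDC4, an arrestin-domain gene related to the glucose-responsive TXNIP, had 338, 428, 378 and 244 with nintedanib and 127, 165, 134 and 164 with vehicle (log2 difference 1.21, SE 0.24). ARAP2, for an ARF6 GTPase-activating protein, had 175, 297, 201 and 242 with nintedanib and 65.7, 72.6, 100.2 and 119 with vehicle. Nintedanib 2 was the highest library for both. PNPLA8, for a calcium-independent phospholipase, had 365, 294, 258 and 283 with nintedanib and 96.2, 181, 126 and 137 with vehicle. JHDM1D, for a histone lysine demethylase, had 413, 479.9, 439 and 502 with nintedanib and 115, 182, 304 and 211 with vehicle, and followed its mouse namesake with r = 0.82. A row with a date-like symbol, sep-07, which was not renamed, was among them with 2538, 2346, 2388 and 2356 with nintedanib, against 768, 1551, 1082 and 1219 with vehicle, and an r of 0.90. Within each of these genes the groups did not overlap. Whether mouse reads account for the rows with a high r was not tested.

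On the lower side, DNA replication genes had lower levels in nintedanib tumours. Of 41 tested 38 had a negative difference, with a median log2 difference of −0.40, and 13 lay below vehicle without overlap, against 3.22% of all genes; neither limma fit nor DESeq2 called a member. Fewer cells in the cycle and less of these transcripts per cell cannot be told apart in bulk tumour RNA. CDC45, a subunit of the replicative helicase, had 252, 251, 308 and 261 with nintedanib and 473, 469, 372 and 417 with vehicle (log2 difference −0.69, SE 0.21, adjusted p = 0.291, limma). MCM2, for a further helicase subunit, had 1355, 1103, 1465 and 1205 with nintedanib, against 2294, 2257, 2025 and 1704 with vehicle. MCM7, of the same ring, had 1623, 1398, 1896 and 1727 with nintedanib, against 3257, 2643, 2238 and 2168 with vehicle. The origin recognition gene ORC1 had 129.6, 113, 155 and 99.3 with nintedanib and 249, 303, 164 and 157 with vehicle, and the clamp loader gene RFC5 had 362, 295, 471 and 332 with nintedanib and 473, 663, 516 and 520 with vehicle. In each of these 5 genes every nintedanib library was below every vehicle library. MCM6, for another helicase subunit, overlapped at 658, 635, 739.9 and 798 in nintedanib libraries and 545, 819, 650.3 and 741 in vehicle libraries. The sliding clamp gene PCNA overlapped as well, at 1794, 1904, 2240 and 1932 in nintedanib libraries and 1497, 2548, 1902 and 2132 in vehicle libraries.

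The transcription factors that drive the cycle were among the lower genes of smallest p. E2F2 had 97.4, 68.4, 106 and 114 with nintedanib and 244, 181, 199.5 and 189 with vehicle (log2 difference −1.08, SE 0.24, adjusted p = 0.166, limma; DESeq2 adjusted p = 0.00747). FOXM1 and MYBL2 together switch on genes of the G2 and M phases. FOXM1 had 813, 505, 768 and 813 with nintedanib, against 1501, 1032, 1337 and 1082 with vehicle, and MYBL2 had 1357, 891, 1302 and 1294 with nintedanib, against 2089, 1682, 1768 and 1734 with vehicle. Nintedanib 2 was the lowest library for both. GTSE1, for a microtubule-associated regulator of p53 in G2, had the smallest p among the lower genes, with 282, 249.9, 303 and 259 with nintedanib and 488, 548, 506 and 459 with vehicle (log2 difference −0.87, SE 0.19, adjusted p = 0.131, limma). AURKB, the chromosomal passenger kinase, had 779, 676, 683 and 781 with nintedanib and 1973, 1340, 1246 and 815 with vehicle, and CENPA, the centromeric histone, had 92.2, 101.1, 79.2 and 55.5 with nintedanib and 109.6, 145, 137 and 158 with vehicle. PSRC1, a spindle gene, had 652, 539.6, 590 and 608 with nintedanib and 1076, 914, 813 and 851 with vehicle. The mitosis list as a whole was mixed, with 19 of 29 members below 0, a median of −0.15 and 6 lower without overlap, against 3.22% of all genes. MKI67, a common proliferation marker, had 3584, 3066, 2900 and 3443 in nintedanib libraries and 2509, 3675, 4121 and 3092 in vehicle libraries (log2 difference −0.02, SE 0.21). TOP2A, a topoisomerase gene of dividing cells, had 6218, 4896, 4703 and 5165 in nintedanib libraries and 3768, 5989, 6115 and 5280 in vehicle libraries (log2 difference 0.01, SE 0.23). Both overlapped, and both differences, close to 0, changed sign under some of the alternatives tried.

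**Figure D3:**
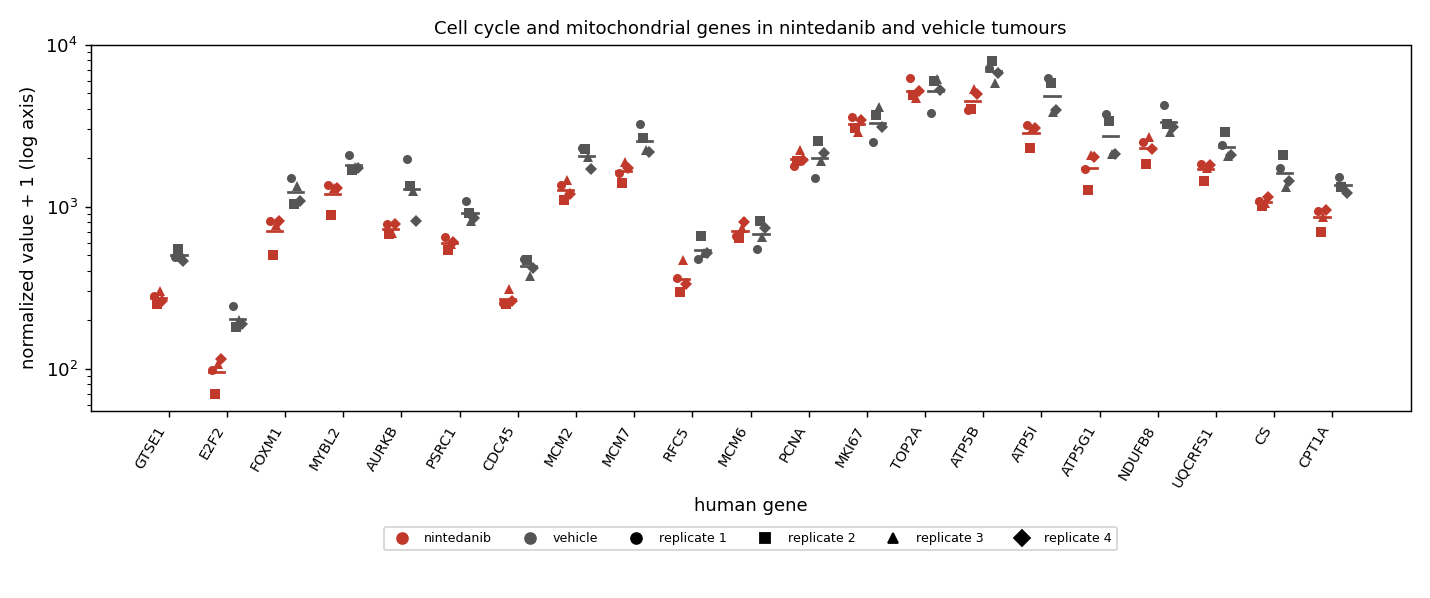
Normalized value + 1 (log axis) of 21 human genes of the cell cycle and of mitochondria, with nintedanib libraries in red to the left of vehicle libraries in grey, a symbol per replicate number and a bar at the mean of the log2 values. GTSE1, E2F2 and CDC45 lie lower with nintedanib without overlap, and MCM6, PCNA, MKI67 and TOP2A overlap.

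Other lower genes of smallest p included TTI1, a cofactor of PI3K-related kinases, with 319, 195, 235 and 224 with nintedanib and 592, 416, 509 and 401 with vehicle, and SNHG3, a small nucleolar RNA host gene, with 571, 839.6, 624 and 537 with nintedanib and 1602, 2264, 919 and 1255 with vehicle. IPO4, an importin gene, had 463, 335, 401 and 389 with nintedanib and 1023, 982, 576 and 530.2 with vehicle. EDC4, for a scaffold of mRNA decapping, had 292, 248, 298 and 308 with nintedanib and 563, 430.2, 407 and 447 with vehicle, IPPK, for an inositol phosphate kinase, had 197, 169, 215 and 145 with nintedanib and 296, 309.5, 295 and 279 with vehicle, and FOXRED2 had 718, 591, 697 and 845 with nintedanib and 1453, 1163, 1263 and 977 with vehicle. All 6 were without overlap. Ribosome biogenesis genes had a negative difference in 15 of 20, by a median of −0.19, which was −0.11 without vehicle 2, and 3 were lower without overlap, against 3.22% of all genes. PES1, for a factor of large ribosomal subunit assembly, had 872, 614, 1043 and 993 with nintedanib and 1657, 1156, 1291 and 1147 with vehicle.

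Genes of mitochondrial energy production had negative median differences. For complex I 34 of 38 members had a negative difference (median −0.30, 4 without overlap), for complexes III and IV 20 of 20 (median −0.37, 2 without overlap), for the ATP synthase 13 of 15 (median −0.36, 4 without overlap) and for the tricarboxylic acid cycle 17 of 20 (median −0.19, 1 without overlap). Over all genes tested 51.7% had a positive difference and 3.22% were lower without overlap, and the 1 of 20 for the tricarboxylic acid cycle is near that share. Neither limma fit called a member of these 4 lists, and DESeq2 called 1, ATP5B, against 0.0736% of all genes called lower. Without nintedanib 2 the ATP synthase median was −0.20. ATP5B, the catalytic beta subunit of the ATP synthase, had 3925, 4006, 5351 and 4939 with nintedanib and 7168, 7902, 5834 and 6643 with vehicle (log2 difference −0.60, SE 0.16, adjusted p = 0.256, limma; DESeq2 adjusted p = 0.0454). ATP5I, another subunit, had 3172, 2294, 3001 and 3048 with nintedanib and 6188, 5843, 3835 and 3934 with vehicle. CS, for citrate synthase, had 1080, 1013, 1053 and 1148 with nintedanib and 1738, 2078, 1327 and 1440 with vehicle, and vehicle 2 was the highest library. NDUFB8 of complex I had 2501, 1840, 2678 and 2270 with nintedanib and 4273, 3219, 2887 and 3102 with vehicle, and UQCRFS1, the iron-sulfur protein of complex III, had 1836, 1442, 1730 and 1811 with nintedanib and 2409, 2878, 2069 and 2083 with vehicle. CPT1A, which admits long-chain fatty acids to mitochondria, had 935, 699.5, 868 and 959 with nintedanib and 1530, 1329, 1347 and 1219 with vehicle. Each of these 6 genes was lower in all nintedanib libraries than in any vehicle library.

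The receptors that nintedanib inhibits were detected in the tumour cells to different extents. Most reads fell on FGFR3 and FGFR2, FGFR3 with 489.7, 450.4, 404 and 572 with nintedanib and 721, 615, 476 and 607 with vehicle, and FGFR2 with 225, 205, 169.9 and 258 with nintedanib and 216, 302, 219.9 and 197 with vehicle. Both overlapped. FGFR4 was the one receptor gene without overlap, at 7.83, 5.57, 16.2 and 3.37 with nintedanib and 29.5, 17.9, 23.8 and 19.2 with vehicle (log2 difference −1.51, SE 0.44, adjusted p = 0.276, limma), at a low level. FGFR1 stood at 13.9, 3.98, 2.86 and 1.68 with nintedanib and 3.81, 14.5, 4.25 and 13.6 with vehicle. Of the VEGF receptor genes KDR and FLT4 were near the floor of detection, KDR at 4.35, 0, 0 and 5.05 with nintedanib and 0, 4.47, 0.85 and 3.39 with vehicle, and FLT4 at 0, 0, 5.73 and 6.73 with nintedanib and 0, 0, 0 and 1.13 with vehicle. FLT1 was low but above that floor, at 4.35, 21.5, 20.1 and 26.9 with nintedanib and 16.2, 10.1, 10.2 and 23.7 with vehicle. PDGFRA stood at 1.74, 2.39, 5.73 and 5.05 with nintedanib and 0, 2.24, 2.55 and 3.39 with vehicle and PDGFRB at 16.5, 18.3, 14.3 and 32.0 with nintedanib and 26.7, 22.4, 9.34 and 30.5 with vehicle. The groups overlapped for all 5 VEGF and PDGF receptor genes. The kinase genes SRC and LYN overlapped, with log2 differences of −0.09 (SE 0.21) and 0.17 (SE 0.19).

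Of 16 ligand and cofactor genes of these receptors 10 had a positive difference, by a median of 0.11, which was −0.039 without vehicle 2. FGFBP1, whose product releases stored FGF, was lower without overlap, at 3102, 2062, 2767 and 2669 with nintedanib and 3757, 4342, 3943 and 3371 with vehicle. VEGFA had 1029, 1377, 1320 and 804 with nintedanib and 723, 868, 1046 and 1127 with vehicle and followed its mouse namesake with r = 0.86, and PDGFB had 291, 185, 415 and 119.5 with nintedanib and 112, 41.3, 191 and 198 with vehicle; both overlapped. Transcripts that ERK signalling induces had a negative difference in 14 of 20, by a median of −0.10, with 1 lower without overlap, which is near the 3.22% of all genes, and the median was 0.0051 without nintedanib 2. The phosphatase gene DUSP5 had 1116, 1062, 1156 and 976 with nintedanib and 1646, 1218, 1657 and 1216 with vehicle. The immediate early gene EGR1 had 1259, 1369, 1069 and 1738 with nintedanib and 1440, 2943, 2178 and 2353 with vehicle, and the ETS factor gene ETV5 had 90.5, 113, 113 and 70.7 with nintedanib and 163, 107, 203 and 155 with vehicle. In both, 1 vehicle library lay within the nintedanib range.

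Hypoxia response genes had a positive difference in 27 of 28, by a median of 0.54, and 2 did not overlap, namely MXI1 and INSIG2, which is near the 4.86% of all genes. MXI1, for a MYC antagonist induced by low oxygen, had 3526, 4990, 3120 and 3011 with nintedanib and 1355, 1503, 2537 and 2856 with vehicle, and r with its mouse namesake was 0.87. BNIP3L, for a mitophagy receptor, had 2339, 2249, 1792 and 1286 with nintedanib and 703, 678, 1732 and 1187 with vehicle (log2 difference 0.91, SE 0.28, r with the mouse namesake 0.87). P4HA1, a collagen prolyl hydroxylase gene, had 1114, 1225, 1212 and 761 with nintedanib and 405, 475, 757 and 877 with vehicle. In these 3 genes vehicle 1 and vehicle 2 were low, vehicle 3 and vehicle 4 were near the nintedanib range, and the list score of vehicle 2 was −0.79. Without vehicle 2 the median was 0.30. Of the 28 members 10 followed their mouse namesakes with r above 0.8. FOXO target genes, which rise when PI3K and AKT signalling is low, had a positive difference in 20 of 21, by a median of 0.38; 1 was without overlap, a share like the 4.86% of all genes. FBXO32, for a ubiquitin ligase, had 1293, 1493, 1135 and 1446 with nintedanib and 741, 467, 1116 and 1068 with vehicle. KLHL24 had 291, 364, 243 and 328 with nintedanib and 136, 132, 192 and 253 with vehicle, and TNFSF10, for the death ligand TRAIL, had 4368, 3739, 3557 and 6018 with nintedanib and 1666, 2241, 3211 and 3615 with vehicle. FBXO32 was the member without overlap.

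Secreted collagenases and stromelysins were higher for some members. MMP13 had 764, 401, 509 and 624 with nintedanib and 311, 324, 292 and 303 with vehicle, and MMP10 had 1606, 1658, 2091 and 1595 with nintedanib and 801, 369.9, 1182 and 1159 with vehicle, neither with overlap. The interstitial collagenase gene MMP1 had 1375, 842, 1284 and 2061 with nintedanib and 532, 763, 609 and 893 with vehicle. Across the list 11 of 15 had a positive difference, with a median of 0.34. Mesenchymal genes had a positive difference in 18 of 20, by a median of 0.37, which was 0.092 without vehicle 2; 1 was without overlap, near the 4.86% of all genes. Markers of fibroblasts and pericytes had the same direction: 7 of 8 had a positive difference (median 0.48, from −0.075 to 1.45), 0 were without overlap, and their summed level was 50120 to 91520 with nintedanib and 46970 to 70070 with vehicle. Most of that sum was COL1A1, at 89830, 56050, 49460 and 48160 with nintedanib and 46270, 68470, 48620 and 55670 with vehicle. The part of the fibroblast and pericyte markers in the mesenchymal values was not tested. VIM, the intermediate filament gene of mesenchymal cells, was low, at 73.1, 84.4, 60.1 and 52.2 with nintedanib and 40.0, 24.6, 53.5 and 24.9 with vehicle. TPM1 had 2215, 1826, 1766 and 6353 with nintedanib and 1397, 1615, 1387 and 1646 with vehicle, and nintedanib 4, the library with muscle transcript, held the highest value; mouse Tpm1 was at 27060 there and at 2559 to 3627 in the other nintedanib libraries, and at 3387 to 6207 in vehicle libraries. DST, for the hemidesmosomal plakin BP230, had 16720, 19610, 12200 and 11180 with nintedanib and 4184, 7680, 9970 and 8836 with vehicle.

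Inflammatory genes driven by NF-kB had a positive difference in 18 of 23, by a median of 0.55, and 0 were without overlap. Nintedanib 3 carried this, with a list score of 1.44 against −0.0086 to 0.19 in the other nintedanib libraries, and the median was 0.16 without it. NFKBIA, the feedback inhibitor of NF-kB, had 2508, 2300, 6455 and 2937 with nintedanib and 2185, 1888, 2428 and 2362 with vehicle, and BIRC3 had 63.5, 127, 288 and 103 with nintedanib and 71.5, 38.0, 91.7 and 47.5 with vehicle. In both genes nintedanib 3 was the highest library. MHC class I genes had a negative difference in 13 of 16, by a median of −0.18, with 1 lower without overlap, against 3.22% of all genes. That median was −0.069 without nintedanib 2 and −0.33 without vehicle 2. The class I transactivator NLRC5 had 67.0, 95.5, 93.6 and 116 with nintedanib and 194, 182, 109 and 159 with vehicle, and the immunoproteasome subunit gene PSMB8 had 1121, 689, 1139 and 1294 with nintedanib and 1659, 1420, 1337 and 1523 with vehicle. PSMB8 did not overlap, and NLRC5 did, by vehicle 3. Interferon response genes were divided, 10 above and 10 below 0, among them IFI44L, which had 3129, 3280, 2263 and 2561 with nintedanib and 1217, 2037, 1942 and 1996 with vehicle. Sterol and fatty acid synthesis genes had a negative difference in 18 of 26, by a median of −0.20, with 3 lower without overlap, against 3.22% of all genes. ACLY, which makes cytosolic acetyl-CoA, had 666, 568, 639 and 574 with nintedanib and 965, 697, 1010 and 743 with vehicle. VLDLR, a lipoprotein receptor gene, was higher, at 102, 147, 106 and 108 with nintedanib and 47.6, 33.5, 62.0 and 67.8 with vehicle.

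**Figure D4:**
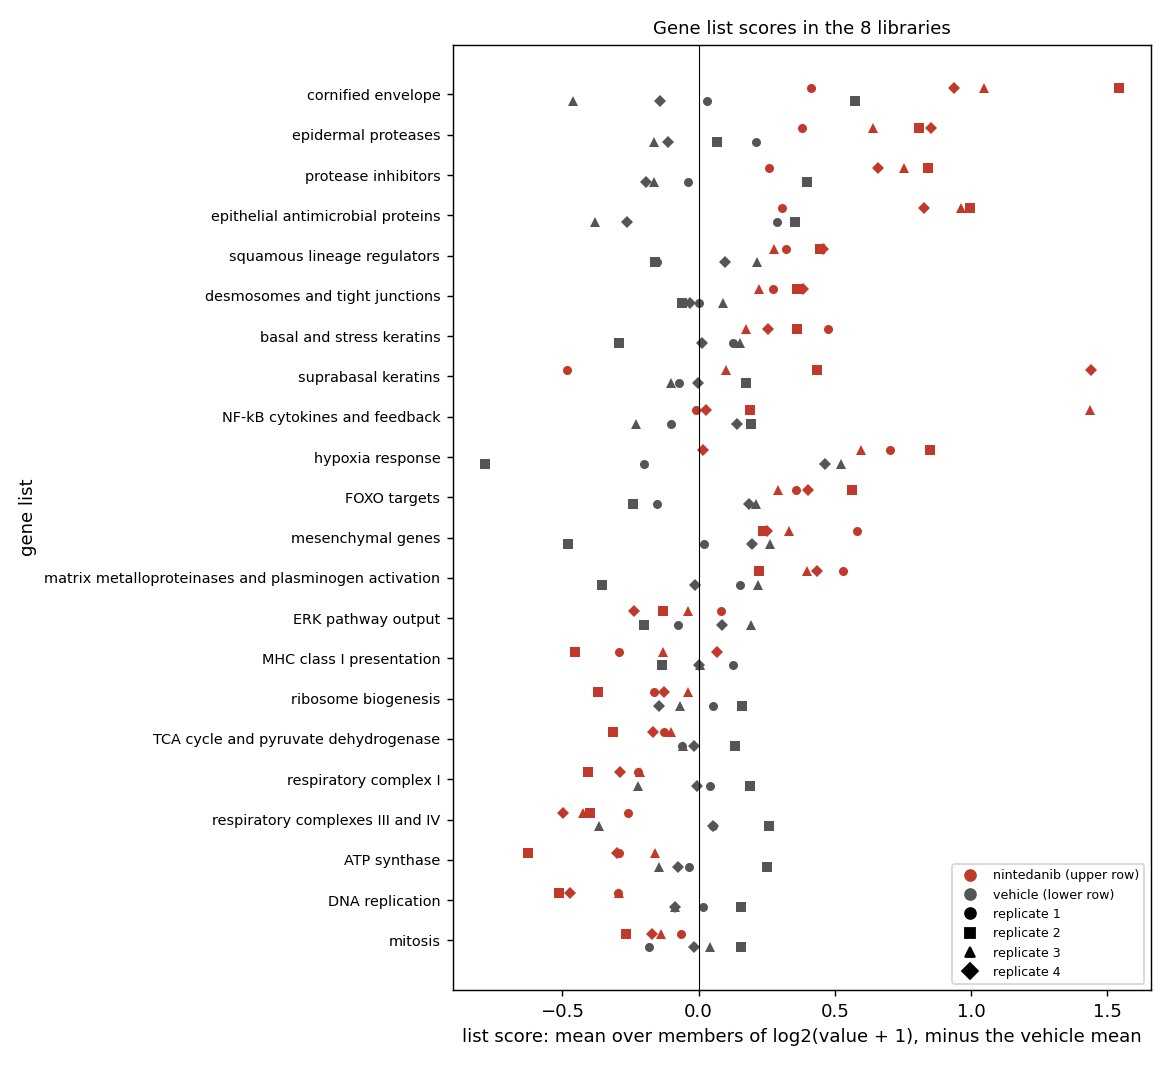
List score of each of the 8 libraries (x axis: mean over a list's members of log2(value + 1), with the vehicle mean at 0) for 22 gene lists, nintedanib libraries in red above vehicle libraries in grey. DNA replication and the ATP synthase show nintedanib below vehicle without overlap, cornified envelope scores overlap because nintedanib 1 (0.41) lies below vehicle 2 (0.57), and nintedanib 3 alone is high for NF-kB genes.

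Scores per library show how even these differences were. The cornified envelope score was 0.41, 1.54, 1.05 and 0.94 in nintedanib 1 to 4, against 0.030, 0.57, −0.46 and −0.14 in vehicle 1 to 4, so nintedanib 1 overlapped with vehicle 2. DNA replication scored −0.29, −0.51, −0.29 and −0.47 with nintedanib and 0.018, 0.16, −0.086 and −0.088 with vehicle, without overlap. Nintedanib 2 held both the highest cornified envelope score and the lowest replication score. The ATP synthase score was −0.29, −0.63, −0.16 and −0.30 with nintedanib and −0.033, 0.25, −0.14 and −0.075 with vehicle.

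Nintedanib was also given on top of alpelisib, and the combination can be set against alpelisib alone without sharing a library with the comparison above. The cornified envelope list, with a median of 1.23 for nintedanib against vehicle, had a median of −0.54 for the combination against alpelisib, and 23 of its 25 members were below 0 there, where 51.4% of all genes were above 0. Alpelisib alone also had scores above the vehicle mean of 0 for this list, at 1.25, 0.75, 0.70 and 0.41. The combination scored −0.36, 0.74, 0.51 and 0.0098. CDSN had 221, 646, 487 and 187 with the combination and 1039, 515, 714 and 391.7 with alpelisib alone, a log2 difference of −0.88, and the difference between the 2 nintedanib effects was −2.52 (adjusted p = 0.205, limma interaction). SPRR2G had 607, 1469, 1088 and 837 with the combination and 1922, 1245, 1575 and 1529 with alpelisib (difference of effects −2.53, adjusted p = 0.205, limma). SPINK5 had 1604, 2343, 1593 and 2963 with the combination and 3860, 2675, 2577 and 2022 with alpelisib (difference of effects −1.87, adjusted p = 0.205, limma). Other genes did not turn: for the combination against alpelisib the log2 difference was 0.33 for SBSN, 0.03 for SCEL and 0.75 for CASP14. Of the 15 higher genes of smallest p without overlap and at or above median expression, 6 were above 0 there and 9 below. The interaction passed an adjusted p of 0.05 for 0 genes (0.00%) and an unadjusted one for 1100 (6.23%). Within the cornified list 17 of 25 had an unadjusted interaction p under 0.05 and 24 of 25 an interaction below 0, with a median of −1.47. The interaction subtracts the difference of nintedanib against vehicle, and the lists were chosen with earlier results of these data known. A list high in that difference is thus drawn toward an interaction below 0, and its members may vary together. These counts are therefore not separate support.

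**Figure D5:**
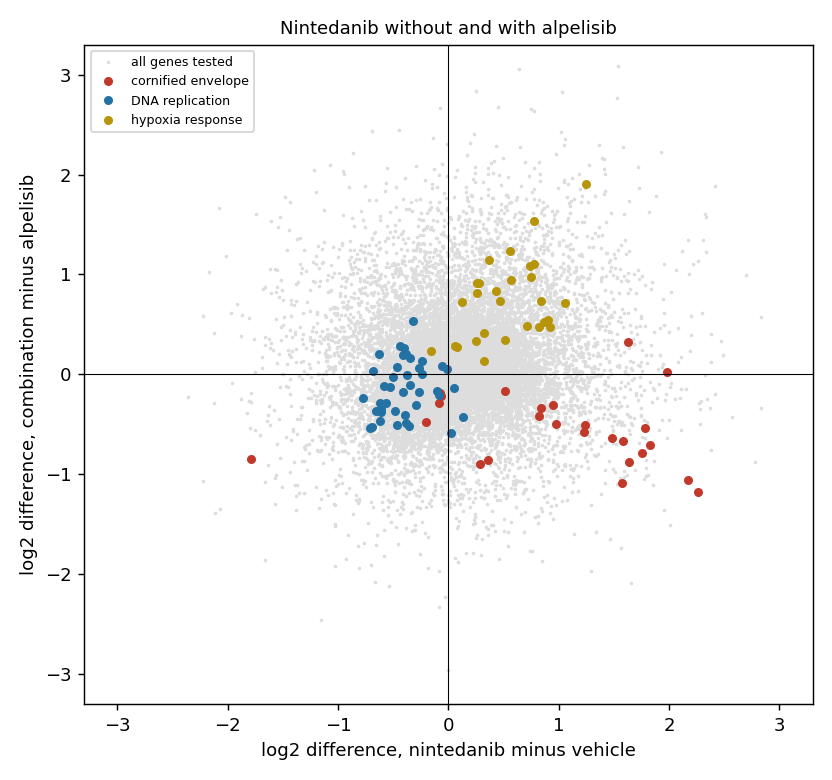
Each point is 1 human gene, placed by its mean log2 difference for nintedanib minus vehicle (x axis) and for combination minus alpelisib (y axis), which share no library. Cornified envelope genes (red) lie mostly to the right of 0 and below 0, DNA replication genes (blue) mostly to the left of 0, and hypoxia genes (gold) mostly above 0 and to the right.

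Hypoxia response genes had a median of 0.54 for nintedanib against vehicle and 0.73 for the combination against alpelisib, where 28 of 28 were above 0. DNA replication genes had a median of −0.40 for nintedanib against vehicle, with 38 of 41 below 0, and of −0.16 for the combination against alpelisib, with 27 of 41 below 0. The difference between the 2 nintedanib effects was above 0 for 31 of these 41 genes, with a median of 0.24, and 7 of 41 had an unadjusted interaction p under 0.05, against 6.23% of all genes. As this difference also contains that of nintedanib against vehicle, a list low there is drawn above 0. Of its members, CDC45 had 507, 446, 368 and 229.7 with the combination and 367, 466, 305 and 329 with alpelisib, a log2 difference of 0.04 (difference of effects 0.73, adjusted p = 0.781, limma). Outside the list, GTSE1 had 457, 342, 301 and 241 with the combination and 424, 451, 349 and 491 with alpelisib (log2 difference −0.38), and E2F2 had 157, 149.6, 93.9 and 109.8 with the combination and 248, 234, 154 and 154 with alpelisib (log2 difference −0.62). FGFR4 had 9.43, 8.76, 6.36 and 9.43 with the combination and 22.8, 20.9, 17.4 and 17.8 with alpelisib, a log2 difference of −1.13. MMP13 had differences of opposite sign, at 219, 342, 158 and 368 with the combination and 377, 680.1, 754 and 502 with alpelisib (log2 difference −1.12; difference of effects −1.98, adjusted p = 0.205, limma).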

How the data were processed

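RNA of ScaBER xenografts was made into QuantSeq 3′ mRNA-Seq libraries and sequenced as 75-bp reads on a NextSeq500, per the labels' protocols. TopHat and the builds hg19 and mm10 are named in the submitters' processing notes; how reads were counted, annotated and scaled is not stated in the sources used here. The deposited tables hold signal, reads divided by 1 size factor per library, since 100% of values above 0 were whole multiples of the library's step within 0.01 read. Read counts, recovered from the deposited signal, covered counting error only, as reads without molecular identifiers are not independent molecules.

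The plan's branch for normalized values was followed. Log2(value + 1) was fitted with limma 3.58.1 (lmFit, eBayes with trend; R 4.3.3), 4 group means over 16 libraries, with Benjamini-Hochberg adjustment. Alternatives included edgeR 4.0.16 and DESeq2 1.42.0 on recovered reads, and scripts were tested on simulated data. Members and lists were chosen with earlier results of these data known. Genes named were the drug targets and ligands, the 15 of smallest p per direction without overlap and at or above median expression, and up to 3 per list. To these came up to 10 called both by DESeq2 and by limma on the 8 libraries under the filter on all 16 libraries. Further genes, members of the SPRR, LCE and kallikrein families among them, were named after their values were seen. A gene that the rule picks is not reported here. Lists were described by counts and medians, with no test. No library was left out.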

Additional observations from a re-analysis of the deposited data

Results flagged for a closer look

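Among 374 groups of 4 values checked (145 genes and the list scores, in nintedanib and in vehicle), 19 held 1 library whose gap to the nearest other exceeded Dixon's 95% critical value for 4 values, and chance flags about 1 in 20. Nintedanib 2 stood apart for SPRR2B, with a normalized value of 521 against 69.6 to 90.9 in the other nintedanib libraries, for FOXM1 (505 against 768 to 813), for MYBL2 (890.5 against 1294 to 1357) and for VLDLR (147 against 102 to 108). Nintedanib 3 stood apart for the NF-kB list score (1.44 against −0.0086 to 0.19), for NFKBIA (6455 against 2300 to 2937) and for MMP10 (2091 against 1595 to 1658). Nintedanib 4 stood apart for KRT13 (7438 against 2292 to 2858), for TPM1 (6353 against 1766 to 2215) and for the leukocyte marker score (0.97 against 0.11 to 0.15).

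Among vehicle libraries, vehicle 1 stood apart for CCND3, a G1 cyclin gene (835 against 429 to 471), and for IFI44L (1217 against 1942 to 2037). Vehicle 2 stood apart for SCEL (88.3 against 26.7 to 34.0), for IL1RN, the interleukin 1 receptor antagonist gene (1058 against 1352 to 1397), and for the glycolysis score (−0.68 against 0.15 to 0.30). Vehicle 3 stood apart for PPL (1304 against 972 to 990.0) and for KRT2 (0.85 against 0), and vehicle 4 for FLT4 (1.13 against 0) and for the EGF receptor and ligand score (0.18 against −0.065 to −0.055).

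Outside the human table, skeletal muscle transcripts made up 3.449% of the mouse reads of nintedanib 4, above the 0.001858% to 0.536% of the vehicle libraries. The human MYH4 row, for a skeletal muscle myosin, read 1303 in nintedanib 4, 2.61 to 8.59 in the other nintedanib libraries and 0 to 43.6 in the vehicle libraries, and its r with mouse Myh4 was 0.941. The part of muscle in other differences was not tested beyond leaving out this library.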

How the results depend on the processing

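Limits: 4 libraries per group, 1 cell line, and human reads of 8303617 in the shallowest library, where 1 read is worth a value of 1.68. Values near that step, as for KDR, FLT4, PDGFRA and TGM3, show no more than detection.

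Genes past an adjusted p of 0.05 numbered 0 in the reported fit, 1 with the nintedanib and vehicle libraries alone, 89 when the filter was applied to those 8 libraries (added after seeing the data), 2 with edgeR under either scaling, 71 with DESeq2, 1 without the trend and 1 without the filter. Leaving out 1 library gave 0 to 4. With voom, a pseudocount of 0.1, a value of at least 10, quantile normalization, scaling to the human plus mouse total, omission of the 2 muscle-rich libraries or omission of genes tracking their mouse namesake the count was 0. With the replicate number as a block it was 8. Over all genes tested, same-numbered nintedanib and vehicle libraries did not deviate together (correlations of −0.052 to 0.069). The combination and alpelisib libraries were not compared in this way. The labels do not say what a shared number means, so a pairing that touches few genes cannot be told from none. Unadjusted p was under 0.05 for 592 higher and 1609 lower genes under scaling to the human plus mouse total, and for 701 to 1447 higher and 416 to 1108 lower genes with 1 library left out. Non-overlapping genes numbered 436 higher and 1129 lower under that scaling, and 1000.0 to 1455 and 720.0 to 1046 with 1 library left out. Leaving out a library can only keep or raise these counts, so their range there does not measure stability. Interaction calls numbered 0 as reported, 10 with DESeq2, 2 without the trend, 3 with the replicate block and 0 to 8 with 1 library left out (8 without combination 2), and unadjusted ones 789 to 1844. The mouse share differed by 3.81 percentage points, and by 1.15 to 5.03 with 1 library left out.

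Of 145 genes followed through the alternatives 130 kept the sign of their difference in every alternative. The sign turned for KDR in edgeR (0.031 with TMM, 0.045 with DESeq2 size factors) and DESeq2 (0.069), for KRT1 in the same fits (0.12, 0.13 and 0.14), and for TOP2A in them (−0.025, −0.012 and −0.012), in voom (−0.0068) and under human plus mouse scaling (−0.081). It turned for KRT10 in voom (−0.0088), under human plus mouse scaling (−0.085) and without the muscle-rich libraries (−0.31), for MCM6 under that scaling (−0.037) and that omission (−0.010), for SPRR3 (−0.25) under that omission, and for FLT1 under it (−0.15) and under quantile normalization (−0.063). PCNA (0.0051) and MKI67 (0.031) turned under quantile normalization. With 1 library left out the log2 differences ranged over −0.21 to 0.0096 for FGFR2, −0.15 to 0.64 for FLT1, −0.57 to 0.30 for KDR, −0.49 to 0.18 for KRT1, −0.31 to 0.25 for KRT10, −0.016 to 0.31 for LYN, −0.058 to 0.14 for MCM6, −0.16 to 0.083 for MKI67, −0.15 to 0.10 for PCNA, −0.43 to 0.11 for PDGFRB, −0.13 to 0.017 for PPL, −0.20 to 0.023 for SOX2, −0.25 to 0.84 for SPRR3, −0.28 to 0.063 for SRC and −0.15 to 0.084 for TOP2A. List medians kept their sign in the alternatives other than leaving out 1 library for the cornified envelope (1.10 to 1.25), epidermal proteases (0.56 to 0.70), hypoxia response (0.45 to 0.79), DNA replication (−0.49 to −0.40), complex I (−0.39 to −0.25) and ATP synthase (−0.45 to −0.32), but not for suprabasal keratins (−0.40 to 0.13).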
